A study of Mus musculus with 12 samples.

Results

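The genes described here are those whose symbol begins with Nduf, the family name given to the nuclear-encoded parts of respiratory complex I (NADH:ubiquinone oxidoreductase) and to many of its assembly factors. They were taken from the array annotation as every Nduf symbol on a row naming exactly 1 gene, and where a gene had several rows the row with the highest mean over the 12 arrays was used. This gave 43 of 19938 genes, of which 36 are subunit symbols and 7 are Ndufaf assembly factors. All 43 passed a filter that left out the dimmest 25% of genes. The subunit symbols comprised 6 core subunits, 9 accessory subunits of the matrix arm and 18 accessory subunits of the membrane arm. The remaining ones were the acyl carrier Ndufab1, Ndufa4 and the like-named Ndufa4l2. Ndufa4 belongs to complex IV despite its name, and Ndufa4l2 was grouped with it here. The symbols Ndufb1, Ndufb4 and Ndufaf8 were not analysed here.

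Livers of 7-week-old mice were profiled on Affymetrix expression arrays, 1 animal's sample per array, in 3 groups of 4 labelled biological replicates. The first group was wild type. The second carried a transgene for constitutively active FoxO3, a forkhead transcription factor normally restrained by insulin signalling, under the LAP promoter, which drives expression mainly in hepatocytes. The third carried the same transgene and received metformin, a biguanide used against type 2 diabetes, at a dose and for a time that the labels do not state. All 3 groups were on a mixed C57BL/6 and NMRI background, with 4 or more backcrosses to C57BL/6. There was no wild type group given metformin, so the metformin comparison was made within transgenic animals. Values are log2 signals, so a difference of 1 is a 2-fold change, and because probes differ in efficiency only 1 gene's signals across arrays are compared.

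Complex I is the entry point of the mitochondrial electron transport chain. Its matrix arm oxidises NADH with a flavin and passes electrons along iron-sulfur clusters to ubiquinone, and its membrane arm pumps protons, so that the complex both regenerates NAD and supplies the gradient used for ATP synthesis. The core subunits carry out this chemistry, and 7 further core subunits are encoded by mitochondrial DNA. The accessory subunits surround and stabilise the core, and the assembly factors build the arms and join them but are absent from the finished enzyme. In liver the complex is abundant in hepatocytes, and metformin is known as an inhibitor of its activity. The arrays measure RNA and not activity, and in whole liver fewer cells of a type and less RNA per cell cannot be told apart.

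Some features of the arrays bear on these genes and are given first. Untreated transgenic replicate 2 stood nearer to wild type than to the rest of its group, with a mean correlation over genes of 0.984 to the former and 0.968 to the latter. The array of metformin-treated replicate 3 was the highest of its group for 39 of the 43 genes, against 38.1% of all 14953 genes tested. Sex transcripts separated the groups as well. The female-expressed Xist was present in every metformin-treated liver and in wild type replicates 1 and 4, and Y-linked transcripts were present in every untreated transgenic liver and in wild type replicates 2 and 3. Metformin treatment and this sex signal therefore cannot be told apart between the transgenic groups, and an adjustment for it rests on the wild type arrays and on the variation of these transcripts within each group. Over the 5 measured hepatocyte markers the array means were 13.24 to 13.26 in wild type, 13.05 to 13.25 in untreated transgenic and 13.21 to 13.27 in metformin-treated livers. Of these markers Ttr was lower in untreated transgenic than in wild type livers (-0.44 ± 0.10, adjusted p = 0.0166 in limma). It was higher with metformin (0.40 ± 0.10, 0.0128), and the other hepatocyte markers were not called. The 8 Kupffer cell and macrophage markers had array means of 9.06 to 9.88, 9.77 to 10.41 and 9.01 to 9.91 in the same order of groups. In limma 3 of the 8 were higher in untreated transgenic than in wild type livers (against 7.97% of all genes). With metformin 3 of the 8 were lower (against 14.1%). The part of these markers in the results below was not tested.

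**Figure D1:**
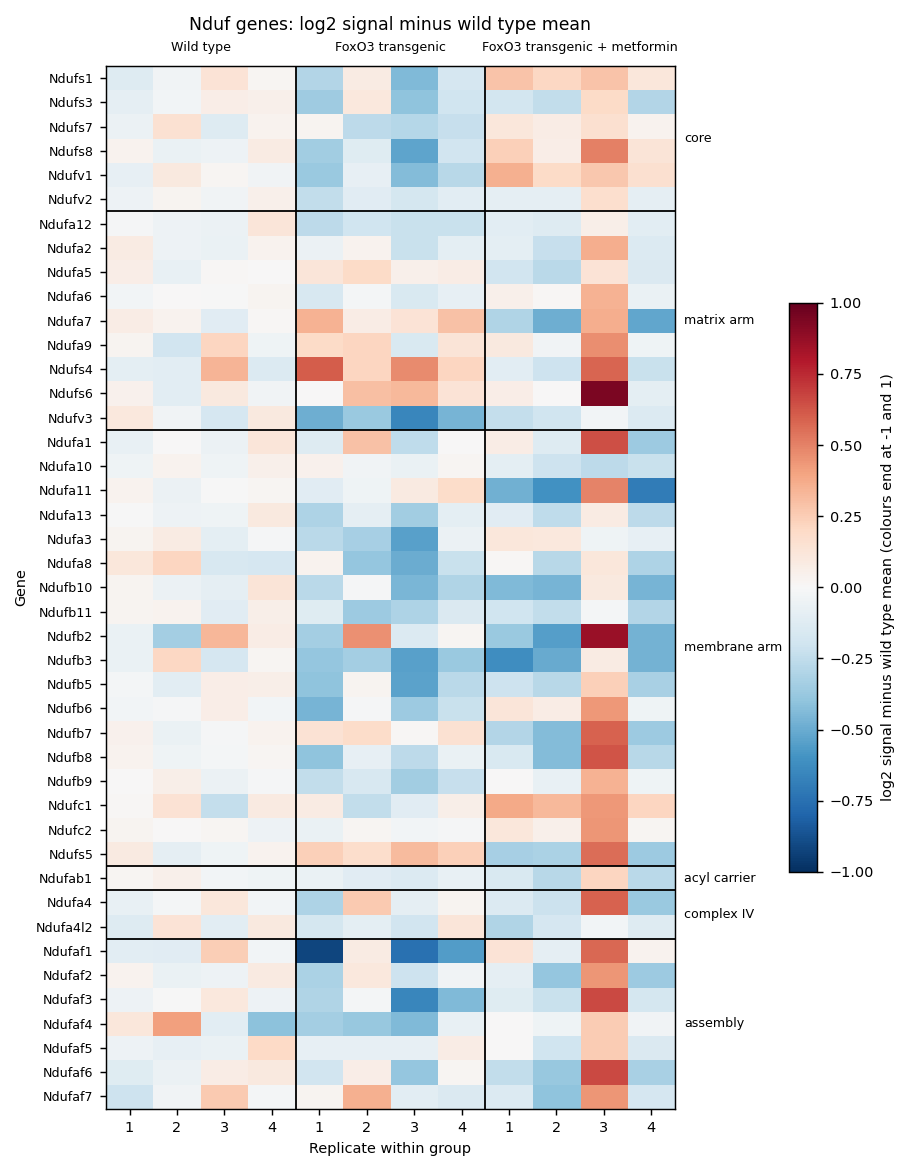
Heat map of the 43 Nduf genes (vertical axis, grouped by their place in the complex) in the 12 arrays (horizontal axis, replicates 1 to 4 of each group). Colour is the log2 signal minus the gene's wild type mean, with colours ending at -1 and 1. The column of metformin-treated replicate 3 is redder than the other columns of its group for 39 genes, and the Ndufv1, Ndufs8 and Ndufs1 rows are red in all 4 metformin-treated columns.

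The promoter stretches below are printed because their genes carry the results: the assembly factor and 2 core subunits with the highest metformin estimates, and 1 gene whose metformin-treated arrays were split. Each is the 150 bases before the transcription start in RefSeq, on the strand of the gene, in build GRCm38.p6, and 38 of the 43 genes had such an entry. The region is chr2:119662835-119662984 (minus strand) for Ndufaf1, chr19:4012756-4012905 (minus) for Ndufv1, chr19:3912775-3912924 (minus) for Ndufs8 and chr17:56717612-56717761 (plus) for Ndufa11. Capitals mark, in Ndufaf1, the forkhead motif TGTTTAC and then the GABPA motif CCGGAAG, and in Ndufa11 a palindrome that holds the NRF1 motif GCATGCGC on both strands, overlapping itself.
Ndufaf1: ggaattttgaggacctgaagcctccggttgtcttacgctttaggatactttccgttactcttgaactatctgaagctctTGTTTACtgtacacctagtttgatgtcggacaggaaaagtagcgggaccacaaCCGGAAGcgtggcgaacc
Ndufv1: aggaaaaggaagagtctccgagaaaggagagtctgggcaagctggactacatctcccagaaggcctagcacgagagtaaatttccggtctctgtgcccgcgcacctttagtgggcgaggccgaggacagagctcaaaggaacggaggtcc
Ndufs8: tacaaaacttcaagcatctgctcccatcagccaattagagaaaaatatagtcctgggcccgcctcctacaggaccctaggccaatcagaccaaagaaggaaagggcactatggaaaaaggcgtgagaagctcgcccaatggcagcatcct
Ndufa11: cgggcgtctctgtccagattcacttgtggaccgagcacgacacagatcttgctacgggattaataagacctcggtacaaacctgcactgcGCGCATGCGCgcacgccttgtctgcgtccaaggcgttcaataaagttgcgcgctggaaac
Motifs of 5 kinds were searched on both strands in the window from 250 bases before to 50 bases after the start, and none overlapped another of the set in the printed stretches. The NRF1 motif GCATGCGC was in 5 of the 38 windows (13.2%, against 2.80% of 27025 RefSeq promoters), those of Ndufa6, Ndufa8, Ndufa11, Ndufaf4 and Ndufaf5. The YY1 motif AAGATGGCG was also in 5 (13.2%, against 1.49%), those of Ndufa9, Ndufc1, Ndufs4, Ndufs6 and Ndufs7, each time after the start. The GABPA motif CCGGAAG was in 5 (13.2%, against 9.12%), including Ndufs8 at a place outside the stretch printed. The estrogen-related receptor motif AAGGTCA was in 2 (5.26%, against 4.66%), and the forkhead motif TGTTTAC, which FoxO proteins share with other forkhead factors, was in 1 (2.63%, against 3.55%). That 1 gene was Ndufaf1. Not every gene higher with metformin had a window. Of the 8 windows that belonged to such genes, 3 held the GABPA motif, 2 the YY1 motif and 1 the forkhead motif. The NRF1 and estrogen-related receptor motifs were in 0. These counts of 8 are not read against the shares above. These are matches of letters and not measured binding.

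The first comparison asked how complex I genes differ between livers with active FoxO3 and wild type livers. Of the 36 subunit genes 3 were lower in the untreated transgenic livers and 0 were higher, where 6.15% of all tested genes were lower and 7.97% higher. The 3 were Ndufv3, Ndufv1 and Ndufa12, all of the matrix arm, at 1.17-fold to 1.41-fold below wild type. The median difference over the 36 was -0.13, against -0.01 over all genes tested, and 28 of the 36 estimates were below 0. Calls were made at an adjusted p under 0.05 in limma, a linear model with a spread shared across genes. At an unadjusted p under 0.05, 10 subunits were lower and 0 higher. Counts at an unadjusted p are given here and below without the share of all genes, and are not read against it. In 11 subunit genes every transgenic array lay below every wild type array, where 11.0% of all genes did so, and in 1 (Ndufs5) every transgenic array lay above, where 10.9% did.

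Ndufv3, a small accessory subunit at the NADH-oxidising tip, had the lowest p among the 43 in this comparison. In wild type livers its signals were 9.20, 9.06, 8.92 and 9.19 in replicates 1 to 4, in untreated transgenic livers 8.60, 8.72, 8.44 and 8.63, and with metformin 8.86, 8.89, 9.06 and 8.95. The untreated transgenic arrays were the lowest 4 of the 12 and overlapped neither other group. The means were 9.09 ± 0.13, 8.60 ± 0.12 and 8.94 ± 0.091 (SD, n = 4), and the transgenic mean was lower than wild type by a log2 difference of -0.50 ± 0.087 (SE; limma adjusted p = 0.00609). The call held when any 1 array was left out and with the sex signal as a covariate, where the estimate was -0.42. It was lost when only the 2 wild type arrays with Y-linked signal were used (-0.40).

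Ndufv1, the core flavoprotein that binds NADH and its flavin, had signals of 10.71, 10.89, 10.81 and 10.75 in wild type, 10.42, 10.71, 10.36 and 10.52 in transgenic, and 11.14, 10.98, 11.06 and 10.95 in metformin-treated livers. The 3 groups did not overlap, although wild type replicate 1 and transgenic replicate 2 met to 2 decimals. The transgenic mean of 10.50 ± 0.15 was below the wild type mean of 10.79 ± 0.077 by -0.29 ± 0.086 (adjusted p = 0.0453 in limma). Ndufa12, an accessory subunit near the ubiquinone-binding region, had signals of 9.75, 9.72, 9.71 and 9.88 in wild type, 9.50, 9.57, 9.54 and 9.54 in transgenic, and 9.66, 9.63, 9.82 and 9.66 in metformin-treated livers. Its transgenic arrays also lay below all others, with a difference from wild type of -0.23 ± 0.069 (adjusted p = 0.0474 in limma). Both calls lie close to the threshold: each was lost on leaving out any of 10 of the 12 arrays (all but transgenic replicate 2 and metformin-treated replicate 3), with estimates that stayed between -0.31 and -0.19. With the sex covariate the estimates were -0.35 for Ndufv1 and -0.19 for Ndufa12, neither called.

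The other core subunits had estimates below 0 that did not pass the test. They were -0.30 ± 0.11 for Ndufs8 (adjusted p = 0.0897 in limma), -0.21 ± 0.11 for Ndufs1 (0.201), -0.21 ± 0.13 for Ndufs3 (0.268), -0.19 ± 0.088 for Ndufs7 (0.168) and -0.16 ± 0.076 for Ndufv2 (0.169). Ndufs8 and Ndufv2, both iron-sulfur subunits, had no transgenic array within the wild type range. Over the 6 core subunits the median was -0.21, and over the 18 accessory subunits of the membrane arm it was also -0.21, with 0 called in limma and 6 lower and 0 higher at an unadjusted p under 0.05. The 9 accessory subunits of the matrix arm had a median of 0.10, with 2 lower and 0 higher. Among these Ndufs4, an accessory subunit whose loss causes a Leigh-like disease in mice, had the highest estimate of the 43 genes at 0.38 ± 0.18 (adjusted p = 0.171).

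Ndufs4 signals were 11.32, 11.32, 11.76 and 11.28 in wild type, 12.02, 11.64, 11.89 and 11.63 in transgenic, and 11.31, 11.21, 11.999 and 11.20 in metformin-treated livers. Wild type replicate 3 and metformin-treated replicate 3 stood inside the transgenic range while the other arrays of their groups were below it. In the membrane arm the lowest estimate was that of Ndufb3, with signals of 7.46, 7.73, 7.36 and 7.54 in wild type and 7.14, 7.18, 6.98 and 7.15 in transgenic livers. These groups did not overlap, and the difference of -0.41 ± 0.14 did not pass (adjusted p = 0.0668 in limma).

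Of the 7 Ndufaf assembly factors 0 were called in either direction in limma, with 1 lower and 0 higher at an unadjusted p under 0.05 and a median of -0.12. That 1 was Ndufaf1, a factor that helps to build the membrane arm as part of the MCIA complex. It had signals of 9.32, 9.31, 9.67 and 9.40 in wild type, 8.50, 9.51, 8.68 and 8.87 in transgenic, and 9.56, 9.33, 10.00 and 9.46 in metformin-treated livers. Transgenic replicate 2 lay inside the wild type range and the other 3 transgenic arrays lay below both other groups. Its estimate of -0.53 ± 0.20 was the lowest of the 43 genes (adjusted p = 0.0938 in limma). Ndufaf3 and Ndufaf4, which act together early on the ubiquinone-binding part, had estimates of -0.35 ± 0.18 (adjusted p = 0.208) and -0.31 ± 0.15 (0.185), and the remaining 4 factors lay between -0.12 and 0.03.

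The counts of this comparison moved with single arrays. Without transgenic replicate 2, 7 subunits were lower and 0 higher (against 11.4% and 15.4% of all genes). These were Ndufv3 (-0.54), Ndufb5 (-0.40), Ndufv1 (-0.36), Ndufs8 (-0.35), Ndufb6 (-0.35), Ndufs1 (-0.30) and Ndufa12 (-0.23), with Ndufaf1 lower by -0.74 as well. Without metformin-treated replicate 3, which enters only through the shared spread, 8 were lower and 2 higher (against 9.22% and 12.5%). Leaving out transgenic replicate 1 or 3, metformin-treated replicate 1, 2 or 4, or any 1 wild type array left 1 subunit lower. The shares of all genes called in these fits are not given here. With the sex covariate 1 subunit, Ndufv3, was lower and 0 higher (against 1.56% and 2.79%), and with only the arrays that had Y-linked signal 0 were called in limma (against 0.00669% and 0.0535%). With the sex covariate and without transgenic replicate 2, 3 subunits were lower and 0 higher (against 8.51% and 11.6%). With transgenic replicate 2 and metformin-treated replicate 3 both left out, 12 were lower and 3 higher (against 15.6% and 21.2%). With arrays weighted by their fit 10 were lower and 0 higher (against 14.1% and 18.2%).

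**Figure D2:**
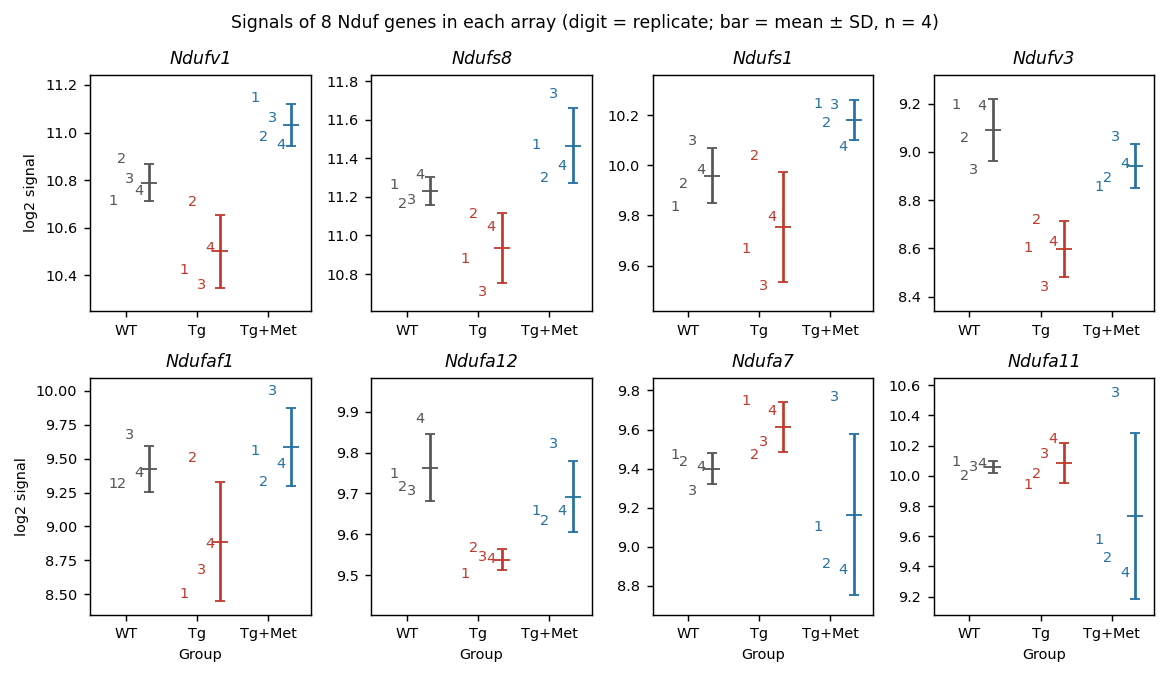
Log2 signals (vertical axis) of 8 Nduf genes in wild type (WT), FoxO3 transgenic (Tg) and metformin-treated FoxO3 transgenic (Tg+Met) livers. Each digit is 1 array, numbered by replicate, and bars give the mean ± SD (n = 4), on vertical axes that do not start at 0. The untreated transgenic arrays are the lowest for Ndufv3 (8.44 to 8.72) and Ndufa12 (9.50 to 9.57), and metformin-treated replicate 3 stands above the rest of its group for Ndufa7 (9.77) and Ndufa11 (10.55).

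The second comparison asked how the same genes differ between transgenic livers with and without metformin. Of the 36 subunits 9 were higher with metformin and 0 were lower, where 10.6% of all tested genes were higher and 14.1% lower. They were 4 of the 6 core subunits (Ndufv1, Ndufs8, Ndufs1 and Ndufs7), the matrix arm subunit Ndufv3, and the membrane arm subunits Ndufc1, Ndufb6, Ndufa3 and Ndufb9, at 1.22-fold to 1.45-fold. At an unadjusted p under 0.05, 11 subunits were higher and 3 lower in limma. In 9 subunit genes every metformin-treated array lay above every untreated transgenic array, where 9.93% of all genes did so, and in 1 (Ndufa10) every array lay below, where 11.7% did. The median over the 36 subunits was 0.08, against -0.01 over all genes, while the core subunits had a median of 0.36, the matrix arm accessory subunits 0.04 and the membrane arm accessory subunits 0.08. Since the 2 groups differed in sex transcripts throughout, none of these differences could be taken within 1 sex signal. With the sex covariate 0 subunits were called in limma (against 0.368% of all genes lower and 0.181% higher), with a median of 0.13.

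The flavoprotein Ndufv1 had the smallest p of the 43, with the signals given above. Its metformin-treated arrays were the highest 4 of the 12, and the mean of 11.03 ± 0.088 was above the untreated transgenic mean by 0.53 ± 0.086, a 1.45-fold difference (adjusted p = 0.00164 in limma). Within wild type livers the 2 arrays with Xist signal averaged -0.12 relative to the 2 with Y-linked signal. Its estimate with the sex covariate was 0.66, which was not called.

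Ndufs8, which carries iron-sulfur clusters on the way to ubiquinone, had signals of 11.26, 11.16, 11.18 and 11.32 in wild type, 10.88, 11.11, 10.71 and 11.04 in untreated transgenic, and 11.47, 11.30, 11.73 and 11.36 in metformin-treated livers. The transgenic groups did not overlap each other, and the metformin-treated range reached just into that of wild type. The difference was 0.53 ± 0.11, or 1.44-fold (adjusted p = 0.00557 in limma), and wild type arrays with Xist signal averaged 0.12 above those with Y-linked signal. Ndufs1, the largest iron-sulfur subunit, had signals of 9.83, 9.93, 10.10 and 9.98 in wild type, 9.66, 10.04, 9.52 and 9.79 in untreated transgenic, and 10.24, 10.17, 10.24 and 10.07 in metformin-treated livers. Transgenic replicate 2 came close to the lowest metformin-treated array without reaching it, and the difference was 0.43 ± 0.11 (adjusted p = 0.0127). The wild type contrast of Xist and Y-linked arrays was -0.11 for Ndufs1.

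Ndufs7, which holds the last iron-sulfur cluster before ubiquinone, had signals of 11.88, 12.09, 11.81 and 11.97 in wild type, 11.97, 11.68, 11.65 and 11.71 in untreated transgenic, and 12.05, 12.01, 12.10 and 11.98 in metformin-treated livers. The transgenic groups did not overlap, with transgenic replicate 1 just below the lowest metformin-treated array. Its difference of 0.28 ± 0.088 (adjusted p = 0.0344 in limma) was called, and the call was lost on leaving out any 1 metformin-treated array or transgenic replicate 2, 3 or 4, with estimates of 0.25 to 0.30. The remaining 2 core subunits were not called. Ndufv2 had signals of 11.61, 11.69, 11.63 and 11.71 in wild type, 11.41, 11.54, 11.48 and 11.56 in untreated transgenic, and 11.57, 11.57, 11.83 and 11.57 in metformin-treated livers, a difference of 0.13 ± 0.076 (adjusted p = 0.219). Ndufs3, part of the ubiquinone-binding module, had 11.21, 11.28, 11.37 and 11.36 in wild type, 10.95, 11.41, 10.90 and 11.11 in untreated transgenic, and 11.12, 11.06, 11.49 and 11.01 in metformin-treated livers, a difference of 0.08 ± 0.13 (0.693). For Ndufs3 the transgenic replicate 2 and metformin-treated replicate 3 arrays were the highest 2 of the 12.

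Of the accessory subunits, Ndufv3 was higher with metformin by 0.35 ± 0.087 (adjusted p = 0.0142 in limma), from signals that did not overlap between the transgenic groups. Its wild type arrays with Xist signal averaged 0.20 above those with Y-linked signal, and its estimate with the sex covariate was 0.18. Ndufc1, a small subunit of the membrane arm, had signals of 10.29, 10.42, 10.04 and 10.37 in wild type, 10.36, 10.04, 10.17 and 10.34 in untreated transgenic, and 10.66, 10.60, 10.72 and 10.49 in metformin-treated livers. Its metformin-treated arrays lay above all 8 others, by 0.39 ± 0.10 over untreated transgenic (adjusted p = 0.0163). A second row for the same gene gave 0.44.

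Ndufb6 had signals of 11.38, 11.40, 11.48 and 11.39 in wild type, 10.95, 11.40, 11.05 and 11.19 in untreated transgenic, and 11.54, 11.49, 11.84 and 11.37 in metformin-treated livers, with 1 array of overlap between the transgenic groups and a difference of 0.41 ± 0.11 (adjusted p = 0.0211 in limma). Ndufb9, a membrane arm subunit of the LYR family, had 11.98, 12.03, 11.92 and 11.96, then 11.73, 11.81, 11.62 and 11.74, then 11.98, 11.90, 12.32 and 11.93 in the same order of groups. Its untreated transgenic arrays were the lowest 4 of the 12, and the difference was 0.30 ± 0.094 (0.0334). Ndufa3 had 10.87, 10.93, 10.75 and 10.84, then 10.58, 10.51, 10.31 and 10.79, then 10.96, 10.95, 10.80 and 10.77, with a difference of 0.32 ± 0.098 (0.0318). Transgenic replicate 4 overlapped the metformin-treated range for Ndufa3. The calls of Ndufb6, Ndufb9 and Ndufa3 were each lost on leaving out transgenic replicate 1 or 3. Those of Ndufb9 and Ndufa3 were also lost without metformin-treated replicate 1, that of Ndufb9 without transgenic replicate 4, and that of Ndufa3 without metformin-treated replicate 2, with estimates of 0.24 to 0.38.

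Of the 7 assembly factors 1 was higher with metformin and 0 were lower in limma (2 higher and 0 lower at an unadjusted p under 0.05), with a median of 0.05. Ndufaf1 had the highest estimate of the 43 genes at 0.70 ± 0.20, or 1.62-fold (adjusted p = 0.0258 in limma), on means of 8.89 ± 0.44 and 9.59 ± 0.29. Its transgenic groups overlapped at replicate 2, without which the difference was 0.90. Its call was lost without metformin-treated replicate 1 (0.71) or 3 (0.56) and without transgenic replicate 1 (0.57), 3 (0.63) or 4 (0.69). Wild type arrays with Xist signal averaged -0.14 relative to those with Y-linked signal, and with the sex covariate the estimate was 0.91, not called.

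Ndufaf3 had signals of 8.90, 8.95, 9.06 and 8.91 in wild type, 8.65, 8.94, 8.30 and 8.51 in untreated transgenic, and 8.83, 8.73, 9.61 and 8.78 in metformin-treated livers, a difference between the transgenic groups of 0.39 ± 0.18 (adjusted p = 0.147 in limma). Its partner Ndufaf4 had 8.65, 8.95, 8.43 and 8.13, then 8.20, 8.16, 8.10 and 8.46, then 8.54, 8.50, 8.79 and 8.51, a difference of 0.36 ± 0.15 (0.112). The transgenic groups of Ndufaf4 did not overlap, while wild type overlapped both. Ndufaf2, a paralogue of Ndufa12 that acts late in assembly, had 7.28, 7.17, 7.19 and 7.33, then 6.92, 7.35, 7.03 and 7.20, then 7.15, 6.85, 7.68 and 6.88, a difference of 0.01 ± 0.16 (0.961). Ndufaf5, which modifies Ndufs7 during assembly, had 5.09, 5.06, 5.08 and 5.35, then 5.07, 5.06, 5.06 and 5.22, then 5.15, 4.95, 5.40 and 5.001, a difference of 0.02 ± 0.10 (0.903). For both genes metformin-treated replicate 3 was the highest of the 12 arrays and the groups overlapped. Ndufaf6, an early assembly factor, had 7.08, 7.14, 7.27 and 7.30, then 7.01, 7.26, 6.81 and 7.22, then 6.95, 6.82, 7.86 and 6.87, a difference of 0.05 ± 0.20 (0.875). Ndufaf7, a methyltransferase that acts during assembly, had 7.18, 7.35, 7.66 and 7.37, then 7.41, 7.75, 7.28 and 7.25, then 7.25, 6.99, 7.83 and 7.22, a difference of -0.10 ± 0.17 (0.711). For all 7 assembly factors metformin-treated replicate 3 was the highest array of its group and replicate 2 the lowest.

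**Figure D3:**
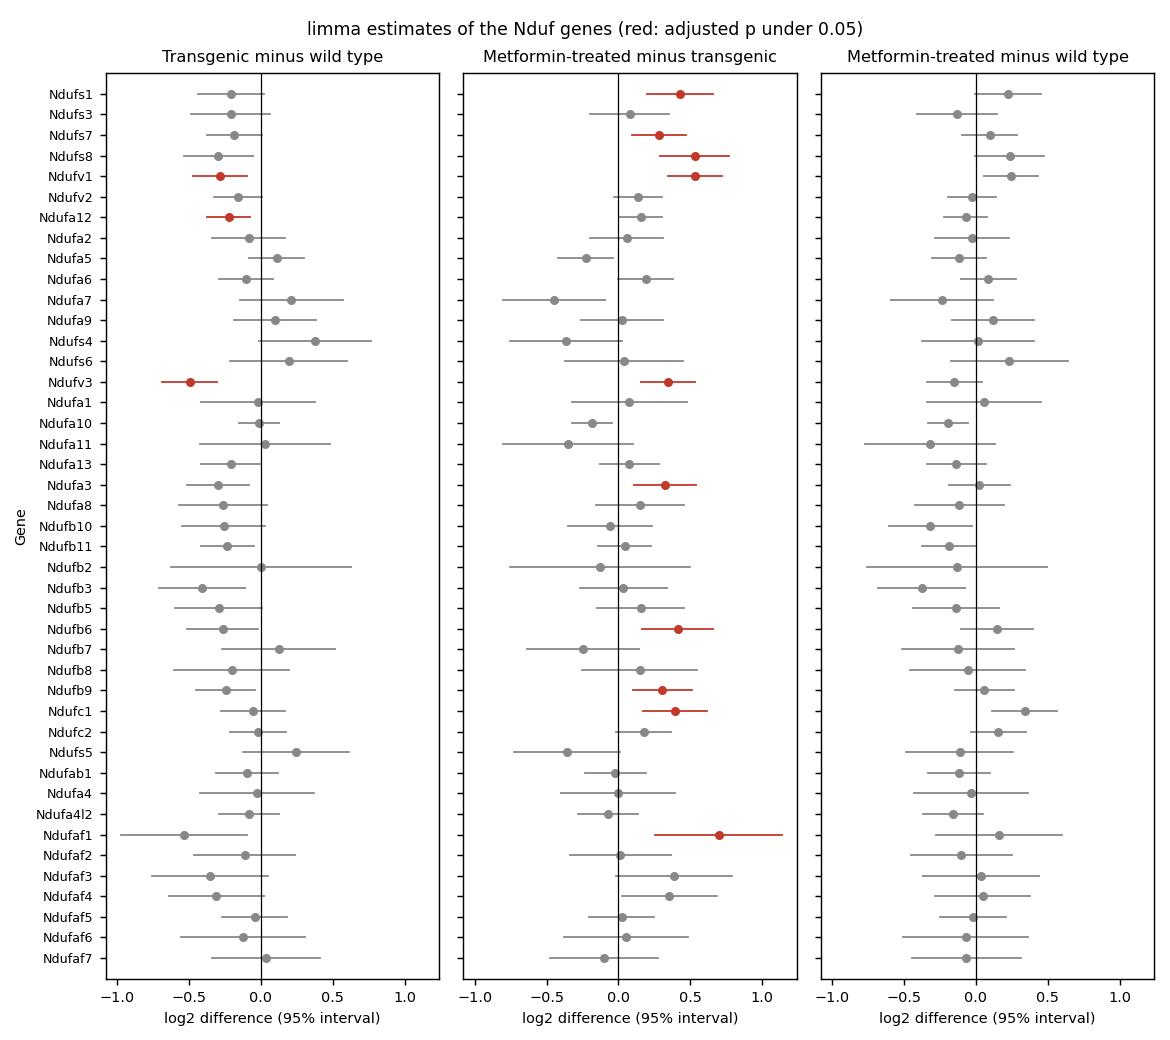
Log2 differences (horizontal axis) of the 43 Nduf genes (vertical axis) in the 3 comparisons, as limma estimates with 95% intervals. Red marks an adjusted p under 0.05. Red points lie below 0 for 3 genes in the transgenic against wild type panel, above 0 for 9 subunits and Ndufaf1 in the metformin-treated against transgenic panel, and are missing from the metformin-treated against wild type panel.

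The second comparison read differently with and without metformin-treated replicate 3. Its excess over the mean of the other 3 arrays of its group had a median of 0.38 over the 36 subunits and 0.67 over the 7 assembly factors, and was 1.33 for Ndufb2, 1.09 for Ndufa11, 0.98 for Ndufaf6 and 0.95 for Ndufb7 and Ndufs6. For 28 of the 43 genes (65.1%) this array was the highest of all 12, against 18.8% of all genes tested. The 4 genes for which it was not the highest of its group were Ndufv1, Ndufs1, Ndufa3 and Ndufa10. The same excess had a median of 0.43 over 46 genes of complexes II to V and of 0.68 over 77 mitochondrial ribosomal proteins.

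Without this array 8 subunits were higher and 6 lower with metformin (against 11.8% and 16.8% of all genes), in place of 9 and 0. Of the 9 higher genes 8 kept their call, with Ndufs7 (0.26) the exception, and Ndufaf1 lost its own. The 6 lower genes, named here after their values were seen, were Ndufa7 (-0.65), Ndufa11 (-0.62), Ndufs5 (-0.58), Ndufs4 (-0.55), Ndufb7 (-0.49) and Ndufa5 (-0.31). With all 4 arrays their estimates were -0.45 for Ndufa7 (adjusted p = 0.0657 in limma), the lowest of the 43, -0.35 for Ndufa11 (0.238), -0.36 for Ndufs5 (0.147), -0.37 for Ndufs4 (0.159), -0.25 for Ndufb7 (0.339) and -0.23 for Ndufa5 (0.0779). None of the 6 is a core subunit: Ndufa5, Ndufa7 and Ndufs4 lie in the matrix arm and Ndufa11, Ndufb7 and Ndufs5 in the membrane arm.

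For Ndufa11, a membrane arm subunit, the signals were 10.09, 10.00, 10.06 and 10.08 in wild type, 9.94, 10.01, 10.14 and 10.24 in untreated transgenic, and 9.57, 9.45, 10.55 and 9.36 in metformin-treated livers. Metformin-treated replicate 3 was the highest of the 12 arrays and the other 3 of its group were the lowest 3. Ndufs5, a twin-cysteine protein on the intermembrane-space side, had the same order, with 9.23, 9.05, 9.09 and 9.18, then 9.38, 9.31, 9.46 and 9.38, then 8.81, 8.82, 9.69 and 8.77. Ndufb7, of the same protein type, had 8.82, 8.72, 8.77 and 8.82, then 8.92, 8.97, 8.79 and 8.93, then 8.49, 8.35, 9.37 and 8.42. Again the replicate 3 array was above all others and its 3 companions below all others. Ndufa7 had 9.47, 9.44, 9.29 and 9.41, then 9.74, 9.47, 9.54 and 9.69, then 9.10, 8.91, 9.77 and 8.88, and Ndufa5 had 8.56, 8.41, 8.50 and 8.49, then 8.61, 8.68, 8.54 and 8.57, then 8.29, 8.22, 8.62 and 8.34. Their metformin-treated arrays other than replicate 3 were the lowest 3 of the 12.

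Ndufa10 was 1 of the 4 exceptions and lay low in all 4 metformin-treated arrays. Its signals were 11.39, 11.47, 11.39 and 11.48 in wild type, 11.47, 11.40, 11.37 and 11.45 in untreated transgenic, and 11.34, 11.23, 11.17 and 11.21 in metformin-treated livers. The metformin-treated arrays were the lowest 4 of the 12, by -0.19 ± 0.064 against untreated transgenic (adjusted p = 0.0524 in limma) and -0.20 ± 0.064 against wild type (0.131), neither of which passed. For the 9 higher subunits the count was 8 without transgenic replicate 2 (against 13.5% of all genes higher and 18.8% lower). It was 5 without transgenic replicate 3, a fit whose share of all genes is not given here. With transgenic replicate 2 and metformin-treated replicate 3 both left out, 8 subunits were higher and 6 lower (against 15.8% and 22.9% of all genes). With the sex covariate and without transgenic replicate 2, Ndufv1 and Ndufs1 were higher and 0 subunits lower (against 4.95% and 7.39%), and Ndufaf1 was higher as well. With arrays weighted by their fit 8 subunits were higher and 7 lower (against 18.8% and 24.2%).

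**Figure D4:**
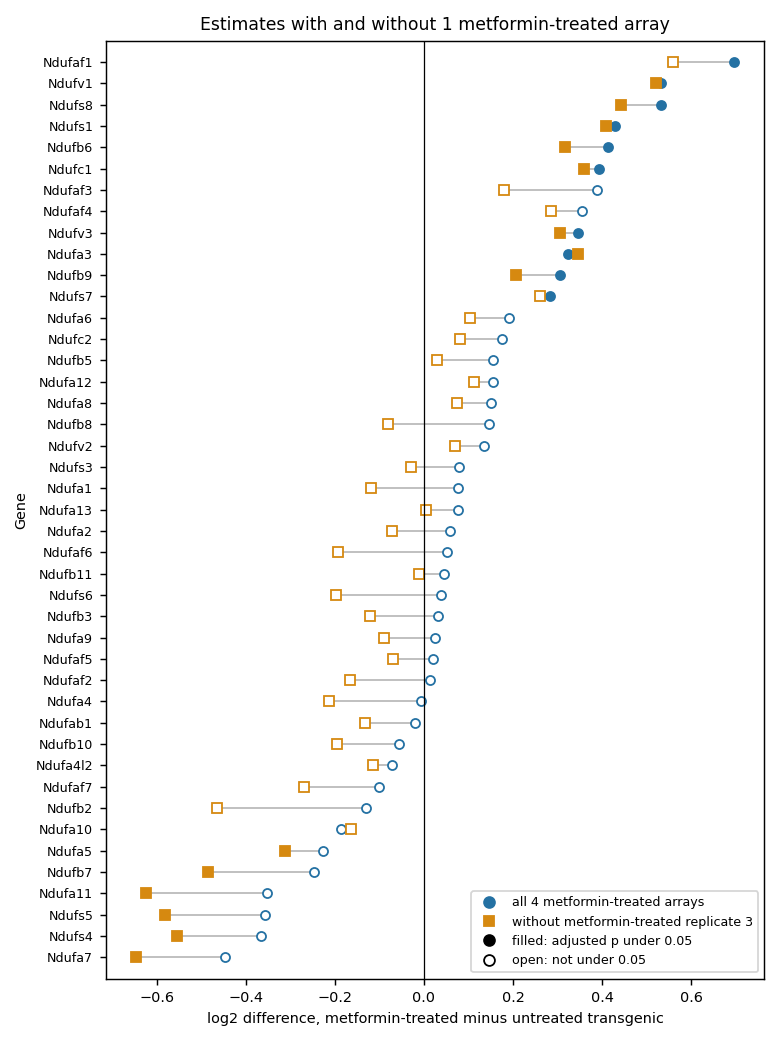
Log2 differences between metformin-treated and untreated transgenic livers (horizontal axis) for the 43 Nduf genes (vertical axis), with all 4 metformin-treated arrays (blue circles) and without metformin-treated replicate 3 (orange squares). Filled symbols have an adjusted p under 0.05. Ndufv1, Ndufs1 and Ndufa3 move little, while Ndufa7, Ndufa11, Ndufs5, Ndufs4, Ndufb7 and Ndufa5 become filled below 0.

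The third comparison set metformin-treated transgenic livers against wild type livers, and so changed transgene and treatment together. It shares its wild type arrays with the first comparison and its metformin-treated arrays with the second. Of the 36 subunits 0 were called in either direction in limma, where 1.44% of all genes were lower and 0.99% higher, and 4 were lower and 2 higher at an unadjusted p under 0.05. The 7 assembly factors had 0 called and 0 at an unadjusted p under 0.05. The medians were -0.06 for the subunits and -0.02 for the assembly factors, against -0.02 for all genes.

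Ndufc1 had the highest estimate of this comparison at 0.34 ± 0.10 (adjusted p = 0.106 in limma), and Ndufv1 was at 0.24 ± 0.086 (0.168). These 2 were the subunits for which every metformin-treated array lay above every wild type array, where 6.21% of all genes did so. Ndufa10 was the 1 for which every array lay below, where 8.23% did. The other core subunits were at 0.23 ± 0.11 for Ndufs8 (0.307), 0.22 ± 0.11 for Ndufs1 (0.314), 0.10 ± 0.088 for Ndufs7 (0.642), -0.03 ± 0.076 for Ndufv2 (0.908) and -0.13 ± 0.13 for Ndufs3 (0.661). The lowest estimate was that of Ndufb3, a small membrane arm subunit, at -0.38 ± 0.14 (0.183). Its metformin-treated signals were 6.90, 7.02, 7.60 and 7.05, so that 3 of the 4 lay below the wild type range.

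Among the assembly factors the estimates ran from -0.10 for Ndufaf2 to 0.16 ± 0.20 for Ndufaf1 (adjusted p = 0.753 in limma). Without metformin-treated replicate 3, 6 subunits were lower than wild type and 0 higher (against 3.3% and 1.88% of all genes). These were Ndufa11 (-0.60), Ndufb3 (-0.53), Ndufb10 (-0.46), Ndufa7 (-0.44), Ndufb7 (-0.36) and Ndufs5 (-0.34), of which 5 belong to the membrane arm. Ndufb10 signals were 8.13, 8.05, 8.02 and 8.23 in wild type and 7.67, 7.65, 8.21 and 7.64 in metformin-treated livers. With all 4 arrays its difference was -0.32 ± 0.13 (0.248). With transgenic replicate 2 left out too, 7 subunits were lower and 0 higher (against 5.62% and 3.83%), and with the sex covariate and all arrays 0 were called in limma (against 0.0468% in each direction). With arrays weighted by their fit 13 were lower and 2 higher (against 11.9% and 8.5%).

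Taking the 3 groups together in limma's F test over both degrees of freedom, 8 of the 43 genes had an adjusted p under 0.05, where 24.2% of all tested genes did. They were Ndufv1 (0.00458), Ndufv3 (0.00592), Ndufs8 (0.0142), Ndufc1 (0.028), Ndufs1 (0.0311), Ndufb6 (0.0472), Ndufa3 (0.0474) and Ndufaf1 (0.0497). In all 8 the untreated transgenic mean was the lowest of the 3, though for Ndufc1 the difference from wild type was -0.05. Ndufa4 and Ndufa4l2 had differences of -0.16 to -0.01 in all 3 comparisons. Those of Ndufab1, the mitochondrial acyl carrier protein, were -0.12 to -0.02, with none of these genes called. Of the 5 genes with a second row, Ndufa11 had the rows furthest apart in the metformin comparison (-0.35 and -0.20), and those of Ndufb11 (0.04 and -0.06) and Ndufab1 (-0.02 and 0.04) differed in sign.

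The wider complex I pathway was described with fixed lists. Of 11 further assembly factors without the Nduf name, 2 were lower in untreated transgenic livers than in wild type and 0 higher (against 6.15% and 7.97% of all genes). The median was -0.19, and the 2 were Foxred1 (-0.47 ± 0.12, adjusted p = 0.0267 in limma) and Dmac2 (-0.31 ± 0.093, 0.0471). With metformin 6 of the 11 were higher and 0 lower (against 10.6% and 14.1%), with a median of 0.43. The 4 with the smallest p were Foxred1, an oxidoreductase needed for assembly (0.95 ± 0.12, adjusted p = 5.12e-04), Dmac2 (0.50 ± 0.093, 0.00323), Timmdc1, a membrane arm factor (0.72 ± 0.17, 0.0109), and Aifm1, which aids mitochondrial protein import (0.66 ± 0.17, 0.0136). Acad9 and Tmem126b, partners of Ndufaf1 in the MCIA complex, were at 0.61 ± 0.19 (0.0351) and 0.36 ± 0.15 (0.0894), and Ecsit, the other partner, at 0.04 ± 0.15 (0.859). Against wild type 0 of the 11 were called in limma, with 3 higher and 0 lower at an unadjusted p under 0.05. With the sex covariate 1 of the 11 was higher with metformin (against 0.181% of all genes). Of the mitochondrially encoded core subunits 1 was measured, ND3, at -0.04 ± 0.077 for transgenic against wild type (0.769) and 0.23 ± 0.077 with metformin (0.0456).

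Of 17 regulators of mitochondrial biogenesis 4 were lower and 1 higher in untreated transgenic livers than in wild type (against 6.15% and 7.97% of all genes). The lower ones included the coactivator Ppargc1b (-0.88 ± 0.23, adjusted p = 0.0269 in limma), the nuclear receptor Esrrg (-0.65 ± 0.17, 0.0275) and Tfb1m, a mitochondrial ribosomal RNA methyltransferase (-0.72 ± 0.22, 0.0476), and the higher one was the mitochondrial DNA polymerase Polg (0.36 ± 0.11, 0.0453). With metformin 5 were higher and 3 lower (against 10.6% and 14.1%). Among the higher ones were Esrrg at 1.06 ± 0.17 (0.00151), Tfb1m at 1.21 ± 0.22 (0.00299) and the mitochondrial transcription factors Tfb2m at 0.45 ± 0.087 (0.00381) and Tfam at 0.47 ± 0.14 (0.0289). Nrf1, whose motif was searched above, was lower with metformin by -0.30 ± 0.093 (0.0352). Against wild type Tfb2m was higher by 0.60 ± 0.087 (0.00942) and was the 1 regulator called, where 0.99% of all genes were higher and 1.44% lower. Of 46 genes of complexes II to V, 1 was lower and 0 higher in transgenic than in wild type livers (against 6.15% and 7.97% of all genes, median -0.09). With metformin 5 were higher and 0 lower (against 10.6% and 14.1%, median 0.04). Without metformin-treated replicate 3 these last became 5 higher and 9 lower (against 11.8% and 16.8%).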

How the data were processed

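Expression was measured in 12 mouse livers on Affymetrix arrays. The table the authors deposited holds log2 signals, 1 column per array and 35556 rows. Per the submitters' processing notes, Affymetrix Expression Console was used. Background correction and normalization were not given in the sources at hand. Array medians were 5.69 to 5.85, and nothing further was normalized. How far a dim row lies above background is not known, and the number of arrays limits the precision.

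Of the rows, 21789 name 1 gene and were used, 1621 name several and 12146 are unnamed here. A RefSeq gene table matched 21698 by Entrez identifier and changed 0 symbols. Of 48 Nduf rows, 5 were the dimmer of 2 for a gene, and 3 rows naming an Nduf gene with another were not used.

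All 14953 genes above the filter were fitted with limma 3.58.1 (R 4.3.3; lmFit, eBayes) on all 12 arrays without covariates, with Benjamini-Hochberg adjustment per comparison. The fit was tested on simulated data. The sex covariate was Xist minus the mean of Eif2s3y, Kdm5d and Uty. The p-values rest on the label of biological replicates. Genes named were all those called, the core subunits, every Ndufaf gene, the highest and lowest estimate per comparison, and per list up to 4 called genes. Genes outside this rule were named after their values were seen, among them the partners of Ndufaf1, Ndufa10, Tfam, Nrf1 and the genes called only when an array was left out. The members and lists were chosen with earlier results of these data known. Alternatives were another normalization, filter, row rule, set of arrays, array weights, moderation setting, replicate block and sex covariate.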

Additional observations from a re-analysis of the deposited data

Results flagged for a closer look

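In 16 of 129 groups (43 genes in 3 groups of 4 arrays) the highest or lowest array stood apart from the rest by more than Dixon's criterion allows. Chance gives about 1 such group in 20. Of the 16, 11 were the high signal of metformin-treated replicate 3. In the matrix arm these were Ndufv2 (11.83), Ndufa12 (9.82), Ndufs4 (11.999) and Ndufs6 (10.08). In the membrane arm they were Ndufb10 (8.21), Ndufb2 (8.39), Ndufb7 (9.37) and Ndufs5 (9.69). Among the assembly factors they were Ndufaf3 (9.61), Ndufaf4 (8.79) and Ndufaf6 (7.86). The other 5 involved 3 arrays. Wild type replicate 3 was high for Ndufs4 (11.76) and Ndufb6 (11.48) and low for Ndufb11 (11.53). For Ndufaf5, replicate 4 was high in both wild type (5.35) and untreated transgenic livers (5.22).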

How the results depend on the processing

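The recomputed differences were those called, those highest or lowest in a comparison, and some chosen after their values were seen. Across the alternatives 579 of these kept their direction and side of the threshold, 86 fell short of it, 44 passed it and 0 reversed. Smaller differences of other named genes were not among them, and some did change sign. Without metformin-treated replicate 3 the metformin-treated mean of Ndufs3 was 11.06, below the untreated transgenic mean of 11.09. That of Ndufaf6 was 6.88, below 7.07. With all 4 arrays both were above it. For transgenic against wild type, the 3 lower subunits became 1 with median centring, 1 with trended and robust moderation, 4 with quantile normalization, 10 with array weights, 1 with the sex covariate, 0 with Y-linked arrays only and 12 with transgenic replicate 2 and metformin-treated replicate 3 both left out. Higher subunits became 1 when only the 8 arrays compared were fitted and 3 with both arrays out. Lower assembly factors became 2 with array weights, 2 with both arrays out and 1 with the sex covariate and no transgenic replicate 2. For metformin, the 9 higher subunits became 0 with the sex covariate, 2 with that covariate and no transgenic replicate 2, 6 with quantile normalization and 5 with the 8 arrays compared. Lower subunits became 1 without the filter, 1 with quantile normalization, 7 with array weights and 6 with both arrays out. The 1 higher assembly factor became 0 with the sex covariate, 0 with the 8 arrays compared and 2 with both arrays out. For metformin-treated against wild type, 13 subunits were lower and 2 higher with array weights, with 1 assembly factor lower, and 7 subunits were lower with both arrays out. The fit with both arrays out was chosen after seeing the data. The share of all genes called moved with the fit as well. For transgenic against wild type, 6.15% of all genes were lower in the main fit and 1.56% with the sex covariate. The share was 0.00669% with Y-linked arrays only, 14.1% with array weights and 15.6% with both arrays out. Shares for median centring, trended moderation, quantile normalization, no filter and 8 arrays are not given here. These counts are not read as changes particular to the Nduf genes. The causes were not tested.

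Leaving out 1 array at a time, the first comparison gave 1 to 8 lower and 0 to 2 higher subunits, with 0 to 1 assembly factors lower and 0 higher. The second gave 0 to 6 lower and 5 to 9 higher subunits, with 0 assembly factors lower and 0 to 1 higher. The third gave 0 to 6 lower and 0 higher subunits, with 0 assembly factors lower or higher. The largest lower counts, 8, 6 and 6, came without metformin-treated replicate 3. In that fit 9.22%, 16.8% and 3.3% of all genes were lower, against 6.15%, 14.1% and 1.44% with all arrays. Most other shares of all genes with 1 array left out are not given here.

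Same-numbered samples did not deviate together (r of -0.18 to 0.24 over 12 pairs, 4 over 0.1), and the best match was the own number in 8 of 24 cases, so the numbers were not taken as a pairing. With the replicate number as a block, 1 subunit was lower in transgenic livers and 7 were higher with metformin, with 1 assembly factor higher. The share of all genes called in that fit is not given here.

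With 4 arrays a group and 1 sex signal in each transgenic group, small differences were not resolved, and a treatment effect and a sex difference cannot be told apart.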

Other observations

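Ppargc1a, the coactivator of mitochondrial gene programmes named for its role with PPAR gamma, had signals of 8.31 to 8.99 in wild type, 8.54 to 10.07 in untreated transgenic and 8.69 to 9.60 in metformin-treated livers. Its difference of 0.89 ± 0.30 between transgenic and wild type did not pass (adjusted p = 0.0683 in limma). Among the 77 mitochondrial ribosomal proteins, which supply the mitochondrially encoded core subunits, 3 were lower and 5 higher with metformin (against 14.1% and 10.6% of all genes). Without metformin-treated replicate 3 these became 30 lower and 4 higher (against 16.8% and 11.8%). That array was the highest of its group for 74 of the 77, against 38.1% of all genes tested.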
